A study of Mus musculus with 6 samples.

Results

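Enteroendocrine cells are the hormone-secreting cells of the gut epithelium, and 10 of their genes were read in CD45-enriched cells of serrated polyps and of the cecum around them. The genes were the granins Chga and Chgb, the hormone genes Gcg, Pyy, Cck, Sct and Insl5, the serotonin-synthesis gene Tph1 and the transcription factors Neurod1 and Insm1. They were chosen by name and role, and every probe that the platform annotation assigns to them was used: 3 for Chga and 1 for each of the other 9, 12 of the 25697 probes on the array. The polyp samples (labelled SP, n = 3) and the samples of normal surrounding distal cecum (labelled Surrounding, n = 3) came in pairs from HBUS mice 1, 2 and 3, and no age, sex or treatment is given for them. From general knowledge of the strain and not from the labels, HBUS mice carry transgenes for the growth factor HB-EGF and for a viral chemokine receptor, expressed in intestinal epithelium; polyp and surrounding samples share them. In each sample, EDTA loosened the epithelium, dispase digested what remained, CD45+ cells were held on a magnetic column, and their RNA was read on an Illumina MouseRef BeadChip, 1 array per sample. Values below are log2 intensities after background correction and quantile normalization unless named otherwise, in the order of mice 1, 2 and 3, and differences are SP minus Surrounding.

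Enteroendocrine cells arise from crypt progenitors that escape Notch signalling and switch on Neurog3, then Neurod1 and Insm1. They package peptide hormones and granins into dense-core granules and release them when nutrients or microbial products reach the lumen. Gcg is the proglucagon gene, from which L cells of the lower gut cut the glucagon-like peptides. The same cells make peptide YY, which slows gut transit and curbs appetite, from Pyy, and in the colon the relaxin-family hormone of Insl5. Secretin, the product of Sct, drives bicarbonate secretion by the pancreas, and cholecystokinin, the product of Cck, contracts the gall bladder. Tph1 catalyses the first and limiting step of serotonin synthesis in enterochromaffin cells and, in rodents, in mast cells.

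CD45 does not select epithelial cells, so the sort was checked first. Ptprc, which encodes CD45, fell by 0.99 on the log2 scale in the polyp samples (SE 0.11, n = 3 pairs; limma adjusted p = 0.0052), by its brighter probe, detected on 2 of 3 polyp and 3 of 3 surrounding arrays. That probe read 94.7 to 130.3 in the polyp samples, near the lowest signals counted as detected, and 132.1 to 157.7 in the surrounding samples. With no background correction its fall was 0.35 (limma adjusted p = 0.0135). The other Ptprc probe, detected on 0 polyp and 3 surrounding arrays, differed by -0.42 ± 0.13 and did not pass (limma adjusted p = 0.0986). All 11 pan-epithelial markers with a named probe, Krt8, Cdh1 and Vil1 among them, were detected on all 6 arrays. Krt8 read 12460.5 to 15555.3 on the scanner scale. The values below are therefore those of a mixed, CD45-enriched sample. Median probe intensities lay between 97.3 and 109.3, the share of probes detected between 49.3% and 53.7%, and the lowest signal that counted as detected between 97.8 and 107.5 on the scanner scale. Precision is limited by there being 3 arrays a group. In such bulk samples fewer cells of a type and less RNA per cell cannot be told apart.

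Of the 10 genes, 7 were detected on enough arrays to be tested and 1 of these, Sct, changed, where 11.5% of all tested genes did. Its signal was 2.64-fold lower in polyp than in surrounding samples. The 250 bases before its RefSeq start are shown, with those of Chga, a granin gene carried by most enteroendocrine cell types that did not pass the test. Neurod1 is known from rodents as an activator of the secretin gene through an E box, and capitals mark the motifs searched. Both strands were searched. The E box had the letters CAGCTG. The GC box searched was GGGCGG. The box of the TATA type was TATAAA. The cAMP response element was TGACGTCA. The Sct window lies at chr7:141279134-141279383 on the minus strand and the Chga window at chr12:102554691-102554940 on the plus strand, both in GRCm38.p6.
Sct: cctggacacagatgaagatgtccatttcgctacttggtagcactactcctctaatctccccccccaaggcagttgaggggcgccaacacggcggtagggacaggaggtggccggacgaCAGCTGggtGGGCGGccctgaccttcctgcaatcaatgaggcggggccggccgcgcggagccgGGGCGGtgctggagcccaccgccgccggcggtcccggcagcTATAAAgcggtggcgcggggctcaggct
Chga: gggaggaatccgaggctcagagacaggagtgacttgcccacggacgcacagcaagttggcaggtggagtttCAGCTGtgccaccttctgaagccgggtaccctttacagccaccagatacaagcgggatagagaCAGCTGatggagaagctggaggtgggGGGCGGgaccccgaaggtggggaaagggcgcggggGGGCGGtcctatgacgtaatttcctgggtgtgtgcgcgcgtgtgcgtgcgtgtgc

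In the Sct window the E box begins 132 bases before the start, with a GC box at 123 bases, a second GC box at 69 and a TATA box at 28. The Chga window holds 2 E boxes, at 179 and 116 bases, and 2 GC boxes, at 90 and 55 bases. The E box letters stand in 13.0% of the 32851 promoter windows of the table, the GC box in 32.7%, the TATA box in 12.4% and the cAMP response element in 1.5%. Of the 10 genes, 9 had a window, and Insm1 was the other. No E box of these letters lay in the windows of Gcg, Pyy, Chgb, Tph1, Cck, Insl5 or Neurod1. The exact letters TGACGTCA lay only in the window of Chgb, at 72 bases. Variant letters of these motifs were not searched, so a window without a match may still hold such an element. Letters that match are a description of these windows and were not tested as sites.

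Detection separated the genes before any comparison. A detection p-value, given by the scanner software for each probe and array and rounded to 2 decimals, was counted as detected under 0.05, and a probe had to be detected on at least 3 of the 6 arrays to be tested. Gcg, Pyy, Sct, Chgb, Tph1 and all 3 Chga probes were detected on all 6 arrays, and Insm1 on 5, with 0.06 on the surrounding array of mouse 2. The genes not detected on 3 arrays were Cck, Neurod1 and Insl5. Cck had detection p-values of 0.01, 0.07 and 0.40 in the polyp samples, against 0.16, 0.33 and 0.41 in the surrounding samples. Cck was thus detected on 1 polyp array alone. Neurod1 had 0.42, 0.31 and 0.50 in the polyp samples, against 0.73, 0.79 and 0.94 in the surrounding samples. Insl5 had 0.44, 0.63 and 0.65 in the polyp samples, against 0.73, 0.71 and 0.46 in the surrounding samples. No change is given for these 3 genes, since none of them was detected on the 3 arrays that the test required. Their intensities were 88.8 to 106.5, and each has 1 probe on the array.

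**Figure D1:**
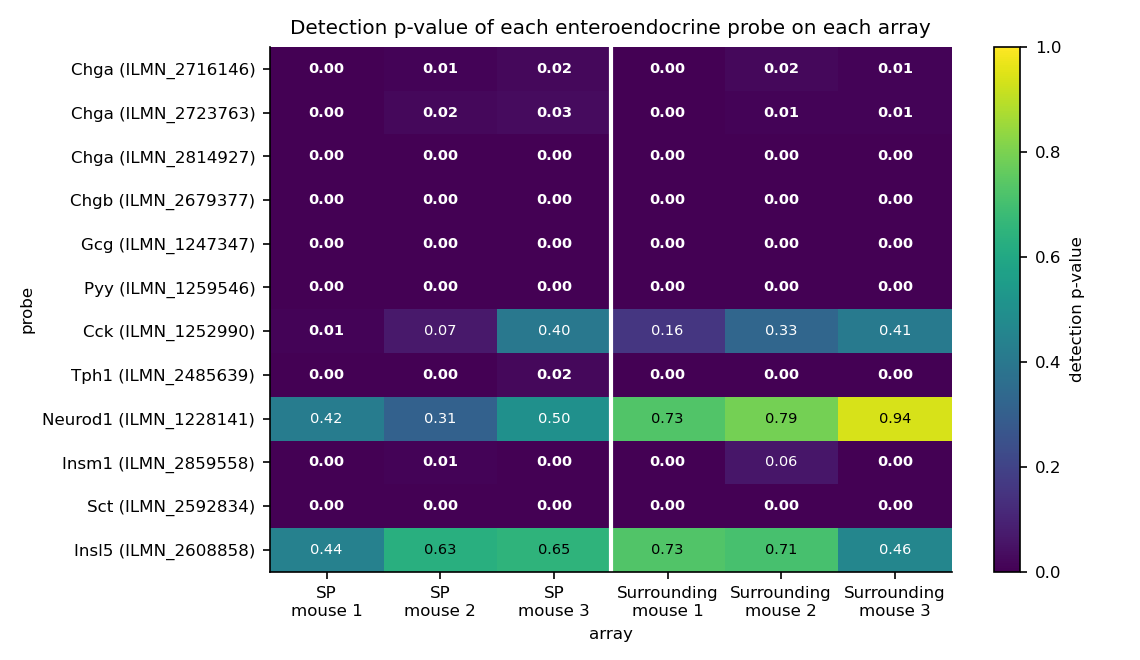
Detection p-value (colour scale from 0 to 1, value printed in each cell, bold under 0.05) of each of the 12 probes (rows) on the 3 SP and 3 Surrounding arrays (columns). Neurod1 and Insl5 have no value under 0.05, Cck has 1, and Insm1 misses on 1 array.

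Secretin was the gene with the clear difference. The scanner intensity of Sct was 1231, 829.2 and 831.1 in the polyp samples, against 4002, 1731 and 2412 in the surrounding samples. After background correction and quantile normalization its log2 level was 10.29, 9.31 and 9.87 in the polyp samples, against 11.95, 10.65 and 11.08 in the surrounding samples. Every polyp sample lay below every surrounding sample, which was so for 9.53% of the 9246 tested genes. Sct fell by 1.40 on the log2 scale (SE 0.12, n = 3 pairs, limma adjusted p = 0.0031), with differences of -1.67, -1.34 and -1.20 in mice 1, 2 and 3 and a 95% interval from -1.69 to -1.12. Of the 13409 tested probes, 87 had a lower change. The mice kept their order in both tissues, with mouse 1 highest and mouse 2 lowest, and the spread between mice (SD 0.49 in polyp and 0.66 in surrounding samples) was smaller than the change. Without a mouse term, the change of the same size did not pass (limma adjusted p = 0.123).

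**Figure D2:**
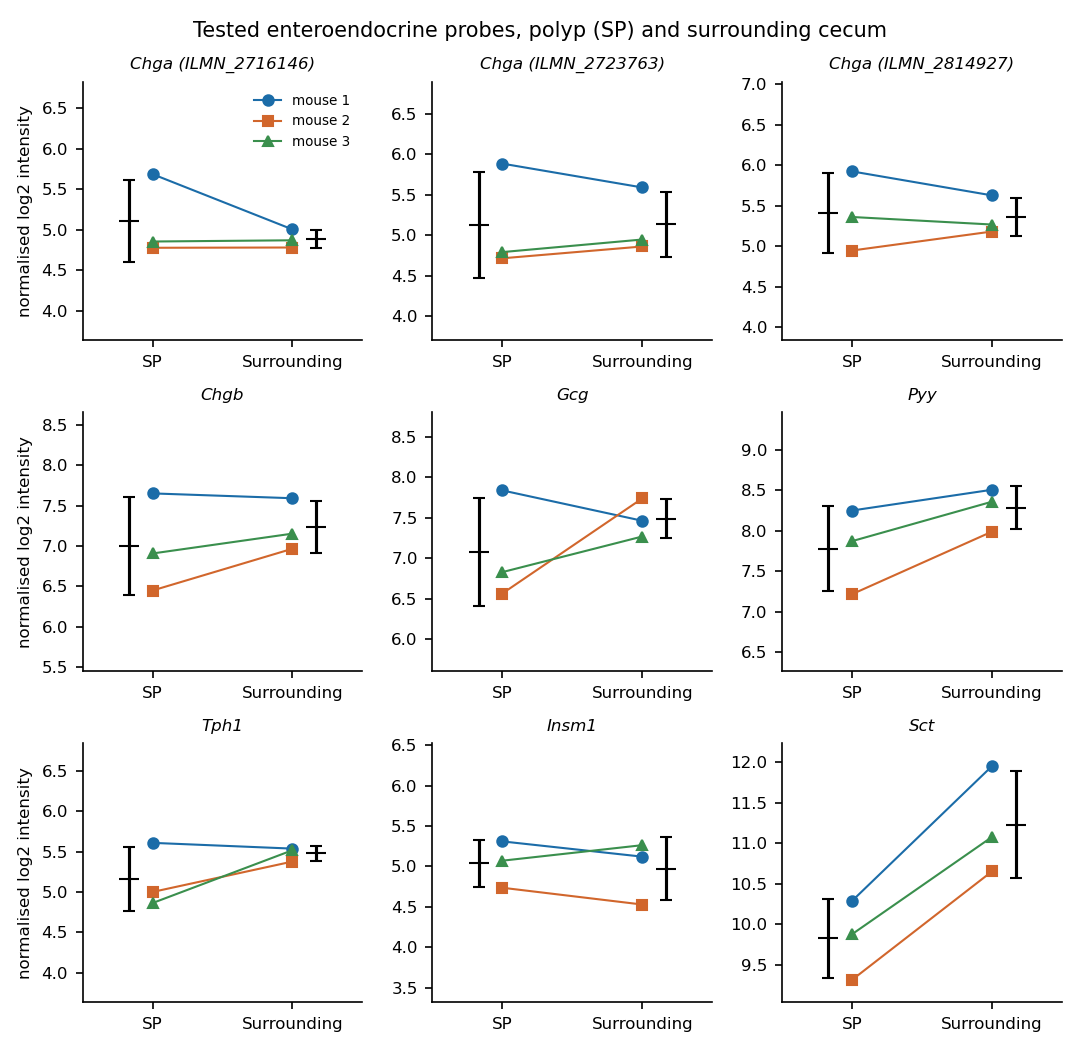
Normalised log2 intensity of the 9 tested probes in SP (left) and Surrounding (right) samples, with 1 line per mouse; black marks are the group mean and SD (n = 3). Each panel spans the same number of log2 units; Sct is lower in SP in every mouse, with no overlap between groups, while the groups of the other probes overlap.

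Neither tested hormone gene of the L cell passed the test. Pyy had log2 levels of 8.25, 7.22 and 7.87 in the polyp samples, against 8.51, 7.99 and 8.36 in the surrounding samples. The polyp value was the lower one in each mouse while the groups overlapped. Its difference of -0.51 ± 0.12 (SE, n = 3 pairs) lay just outside the threshold (limma adjusted p = 0.0544). That call turned with the setting: it passed under 8 of 13 alternatives, for example in the authors' processed values (-0.38, limma adjusted p = 0.0378) and without mouse 1 (-0.63, limma adjusted p = 0.0146). The authors' values and no background correction gave the same result, though both are counted. Arrays scaled to the same median, also among the 8, gave every probe the same variance. Pyy did not pass without mouse 2 (limma adjusted p = 0.287), without mouse 3 (0.175), without a mouse term (0.462), with no filter on dim probes (0.103) or with cyclic loess (0.054). For Gcg the polyp samples had 7.84, 6.56 and 6.83, against 7.46, 7.74 and 7.27 in the surrounding samples. The mice went opposite ways, with 0.38 in mouse 1, -1.18 in mouse 2 and -0.44 in mouse 3. Over the 3 pairs Gcg differed by -0.41 ± 0.27 (limma adjusted p = 0.379), with an interval from -1.08 to 0.25. The Gcg difference was -0.81 without mouse 1 (limma adjusted p = 0.0184) and -0.03 without mouse 2 (limma adjusted p = 0.959). In each mouse the Sct change was lower than that of either L cell gene. Sct was set against them as the gene with the lowest change of the 7 tested, so this order is not separate support. The Sct change minus the Pyy change was -1.41, -0.57 and -0.71 in mice 1, 2 and 3, and the Sct change minus the Gcg change -2.04, -0.17 and -0.76. Both differences had 1 sign in all 3 mice, but an exact permutation test over 3 pairs cannot give a two-sided p under 0.25.

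The granins are acidic proteins that help dense-core granules form, and Chga is the usual general marker of enteroendocrine cells. By its brightest probe Chga had 5.92, 4.95 and 5.36 in the polyp samples, against 5.63, 5.18 and 5.27 in the surrounding samples. The groups overlapped and the difference was 0.05 ± 0.12 (limma adjusted p = 0.829), with an interval from -0.25 to 0.36. The other Chga probes differed by 0.22 ± 0.16 and -0.0022 ± 0.12, also without passing (limma adjusted p = 0.419 and 0.993). All 3 Chga probes were higher in the polyp sample of mouse 1, by 0.68, 0.29 and 0.30, and lower in that of mouse 2. Their scanner intensities, from 99.0 to 135.2, were close to the lowest detected signals. In mouse 3 the brightest Chga probe as scanned read 108.3 in the polyp sample, against 120.5 in the surrounding one, and the order turned after normalization. Chgb had 7.65, 6.45 and 6.91 in the polyp samples, against 7.59, 6.97 and 7.15 in the surrounding samples. Its difference of -0.23 ± 0.13 did not pass (limma adjusted p = 0.299), and its interval ran from -0.55 to 0.08. The polyp value of Chgb was above the surrounding one in mouse 1 alone.

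Tph1 had log2 levels of 5.61, 5.001 and 4.86 in the polyp samples, against 5.54, 5.38 and 5.52 in the surrounding samples. The polyp value was lower in mice 2 and 3 and not in mouse 1, and the difference of -0.32 ± 0.15 did not pass (limma adjusted p = 0.228). Without mouse 1 it was -0.51 (limma adjusted p = 0.0314). Mast cells are a further source of Tph1, and their genes moved unevenly over the mice. Of 9 tested mast cell markers, 1 rose, the transcription factor Gata2 (0.67 ± 0.13, limma adjusted p = 0.0306). That count was 5 with arrays scaled to the same median and 0 without mouse 2, without mouse 3, without a mouse term, with no filter on dim probes, with the background left in and in the authors' own table. Mcpt1 fell without mouse 1, and also with arrays scaled to the same median. The median difference of the mast cell list was 1.98 in mouse 1, 0.30 in mouse 2 and -0.32 in mouse 3. Its summed linear level ran from 847.3 to 3281 in polyp samples and from 857.5 to 1784 in surrounding samples, weighted to Hdc, its brightest gene. Of the 9 markers, 9 were above 0 in mouse 1, 6 in mouse 2 and 3 in mouse 3. The tryptase gene Tpsab1 differed by 2.40, -0.27 and -0.50 in mice 1, 2 and 3, and its relative Tpsb2 by 2.13, 0.51 and 0.15. Tph1 differed by 0.07, -0.38 and -0.65 in the same mice. The part of mast cells in the Tph1 values was not tested.

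Of the other genes of serotonin handling, 6 were tested and 1 changed. Gch1, which makes the cofactor that tryptophan hydroxylase needs, rose by 0.68 ± 0.16 (limma adjusted p = 0.0462). The serotonin transporter Slc6a4 differed by 0.51 ± 0.12 (limma adjusted p = 0.0514) and Ddc, the decarboxylase that completes the synthesis, by -0.30 ± 0.10 (limma adjusted p = 0.117). No gene of this list rose without mouse 2, without mouse 3, without a mouse term, with cyclic loess or with no filter on dim probes. Slc6a4 rose beside Gch1 with both stricter detection filters and with a trended and robust prior, and without mouse 1 the monoamine oxidase gene Maob fell (-0.54, limma adjusted p = 0.0196). The vesicular transporters Slc18a1 and Slc18a2 and the neuronal hydroxylase Tph2 were not detected on any array.

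Insm1, a zinc-finger repressor needed for endocrine differentiation, had 5.31, 4.74 and 5.07 in the polyp samples, against 5.12, 4.53 and 5.26 in the surrounding samples. The groups overlapped, and the difference was 0.07 ± 0.11 (limma adjusted p = 0.747), with an interval from -0.21 to 0.35. Neurog3, which starts the endocrine programme, differed by -0.15 (limma adjusted p = 0.448), and the forkhead factors Foxa1 and Foxa2 by 0.39 (limma adjusted p = 0.0696) and 0.29 (limma adjusted p = 0.131). These 3 were the tested genes of the 15 further enteroendocrine transcription factors with a named probe, and none passed. Neurog3 and Foxa2 read close to the lowest detected signals, and Foxa2 was detected on 1 of 3 surrounding arrays. Foxa1 passed as higher with an offset of 50, with a trended and robust prior, with the background left in and in the authors' own table (0.33 to 0.39, limma adjusted p from 0.0269 to 0.0396). Among the 12 not tested, Nkx2-2, Pax6 and Rfx6 were not detected on any array. In the Notch pathway, which holds progenitors back from the endocrine fate, 0 of 4 tested genes passed, with Hes1 at -0.18 and Dll1 at -0.16. Without mouse 1, Hes1 fell (-0.48, limma adjusted p = 0.0316).

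**Figure D3:**
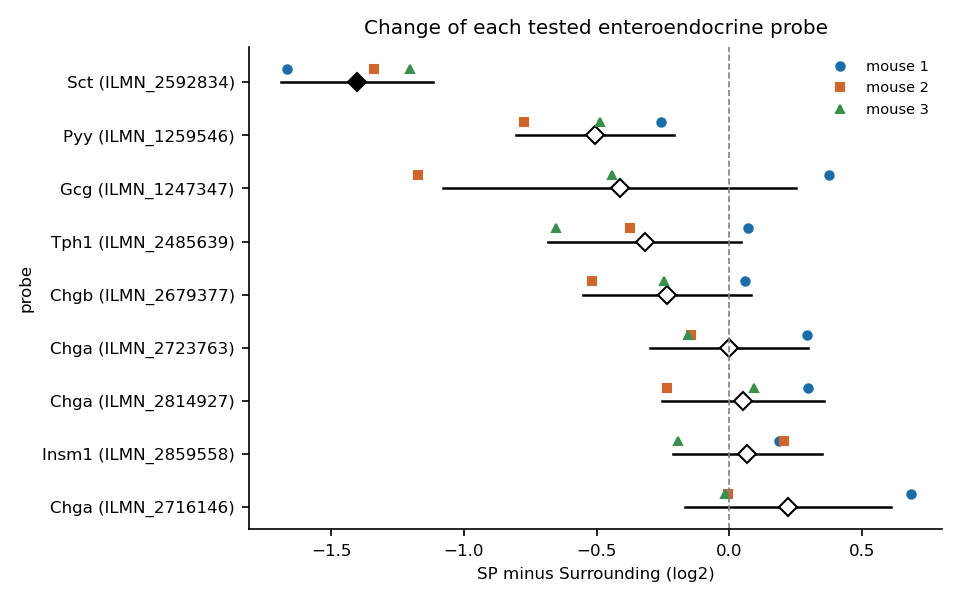
SP minus Surrounding (log2) of the 9 tested probes: diamonds are the limma estimate (filled where the adjusted p is under 0.05), black lines its 95% interval, and coloured points the 3 mice. Sct lies at -1.40, apart from Pyy at -0.51 and the others; the points of mouse 1 lie at or above 0 for all but Sct and Pyy.

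Read as a group, the 10 genes gave 7 tested genes, of which 1 fell, 0 rose and 6 did not pass, with a median difference of -0.32. The 7 are those detected on enough arrays and not all 10. Over all 9246 tested genes, 11.5% passed the test, 6.46% as lower and 5% as higher, with a median of 0.02. The share of the 7 that passed, 14.3%, was close to that background. Of the 7, 5 had an estimate below 0, against 47.1% of all tested genes, and 2, Sct and Pyy, were lower in all 3 mice, 28.6% against a background of 24.2%. In mouse 1, 2 of the 7 were below 0, against 6 in mouse 2 and 6 in mouse 3. The share of all tested genes below 0 in each single mouse was not counted. These counts therefore do not show whether mouse 1 differed in these genes or over the whole array. Without mouse 1, 4 of the 7 fell, Sct, Pyy, Gcg and Tph1, where 9.12% of all tested genes fell. Without mouse 2 and without mouse 3 the count was 1, against 2.18% and 3.02% of all tested genes. Without a mouse term it was 0, against 0.811%.

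Of 8 further gut hormone genes, 4 were tested and 1 changed. Nts, which encodes neurotensin of the N cells of the lower small intestine, fell by 0.64 on the log2 scale (SE 0.12, limma adjusted p = 0.0235) and was detected on 2 of 3 polyp arrays. No hormone gene of this list passed without mouse 2, without mouse 3, without a mouse term, with no filter on dim probes, with the background left in or in the authors' own table, nor among genes detected on all 6 arrays. Sst, the somatostatin gene of D cells, differed by 0.46 ± 0.16 (limma adjusted p = 0.129), the tachykinin gene Tac1 by 0.21 ± 0.23 (limma adjusted p = 0.6) and the incretin gene Gip by -0.02 ± 0.15 (limma adjusted p = 0.94). The scanner values of Sst (109.3 to 129.8) and Gip (94.4 to 110.4) were close to the lowest detected signals. Gip was detected on 1 polyp and 2 surrounding arrays. Like the granins, Sst and Tac1 were highest above their surrounding sample in mouse 1, by 0.91 and 0.94.

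The machinery of hormone processing was mostly out of reach of the array. Of 14 granule and prohormone-processing genes with a named probe, 2 were tested, the amidating enzyme Pam (0.09) and the vesicle protein Syp (-0.07), and neither passed. The prohormone convertase Pcsk1 and the granins Scg2 and Scg3 were not detected on any array. Of 9 nutrient and bile acid receptors, 2 were tested, and neither the short-chain fatty acid receptor Ffar2 (-0.16) nor the long-chain fatty acid receptor Ffar4 (0.35) passed. None of the 11 receptors for the hormones of this group was detected on enough arrays to be tested, the GLP-1 receptor Glp1r and the cholecystokinin receptors Cckar and Cckbr on 0 arrays.

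Other epithelial genes were set beside these values, since enteroendocrine cells are part of the epithelium. Of 11 pan-epithelial markers, 3 rose, Krt19 (0.60 ± 0.09), Krt18 (0.51 ± 0.10) and Elf3 (0.50 ± 0.10), and 10 had an estimate above 0, with a median of 0.26. Their summed linear level ran from 45911 to 47630 in polyp samples and from 38476 to 41394 in surrounding samples, opposite in direction to Sct. That sum is weighted to its brightest genes, Krt8 (0.21) and Lgals4 (0.05), and neither passed as reported. In mouse 3 the higher polyp value depended on normalization for Krt18, Elf3, Krt8, Cdh1, Vil1, Cldn3, Cldn7 and Tspan8. As scanned, Krt18 and Elf3 read 1547.7 and 1309.3 in the polyp sample, against 1576.1 and 1343 in the surrounding one. Krt8 read 12617.3 there against 13159.2, and Vil1 2027.8 against 2343.2. Krt19 and Lgals4 were higher as scanned too, Krt19 at 3891.6 against 3389.6. Neither other Elf3 probe passed. The count of 3 was 5 with no background correction and in the authors' processed values, 1 with arrays scaled to the same median, and 0 without mouse 2, without mouse 3 and without a mouse term. Of 4 tested genes of the large-bowel absorptive surface, 3 fell, the carbonic anhydrase Car4 (-2.21 ± 0.26), the water channel Aqp8 (-1.34 ± 0.13) and Cyp2c55 (-1.11 ± 0.09), and 3 fell whichever mouse was left out. The keratin gene Krt20, the remaining one of that list, was at -0.05. Of 7 goblet cell markers, 2 fell, Clca1 (-1.34 ± 0.16) and Zg16 (-0.52 ± 0.12), while Spink4 (0.26), Agr2 (0.25) and Spdef (0.20) were above 0 in all 3 mice without passing. As scanned in mouse 3, Agr2 and Spdef were lower in the polyp sample (117.7 and 240) than in the surrounding one (124.9 and 307.3), and Spink4 was higher. Of 3 tuft cell markers none passed, with Trpm5 at 0.18. The goblet count of 2 was 1 whichever mouse was left out and 0 without a mouse term.

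**Figure D4:**
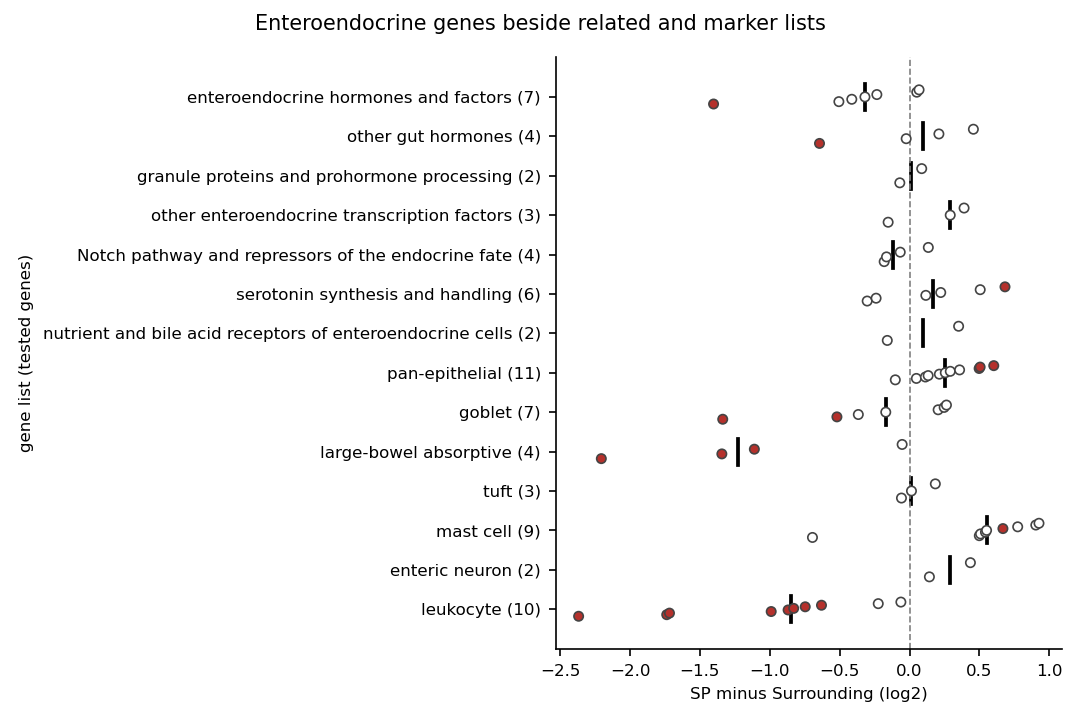
SP minus Surrounding (log2) of each tested gene in each list, with the number of tested genes in brackets; red points passed the limma test, open points did not, and black bars are list medians. The enteroendocrine median lies at -0.32, below the pan-epithelial median of 0.26 and above the large-bowel absorptive median of -1.23.

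Granins and several gut peptides are also made by enteric neurons. Of 13 neuronal markers with a named probe, 2 were tested, Ret (0.44 ± 0.13, limma adjusted p = 0.103) and Stmn2 (0.14 ± 0.18, limma adjusted p = 0.655), and neither passed. Without mouse 1, Ret rose (0.61, limma adjusted p = 0.0115). Their summed level ran from 59.9 to 85.9 in polyp samples and from 52.7 to 59.2 in surrounding samples, and Elavl4, Snap25, Chat and Nos1 were not detected on any array. The glial genes S100b and Gfap were likewise at background on all arrays. Of 10 tested leukocyte genes, 8 fell in polyp samples, with a list median of -0.85, among them Cd79a (-2.37 ± 0.19) and Cd3g (-1.74 ± 0.14). The 2 that did not pass were the myeloid cell genes Itgam (-0.06, limma adjusted p = 0.729) and Lyz2 (-0.22, limma adjusted p = 0.203). Itgam, at 99.8 to 120.7 as scanned, was close to the lowest detected signals. Without a mouse term 1 of the 10 passed, and without mouse 3, 5. The summed leukocyte level, weighted to its brightest genes Laptm5 and Lyz2, ran from 11010 to 18787 in polyp samples and from 19127 to 27000 in surrounding samples. Sct and Pyy moved in the same direction as the leukocyte genes, with intervals below 0. The estimates of Chgb, Gcg and Tph1 were also below 0 and those of Chga and Insm1 above 0, all with intervals that included 0. The part of the sort in these values was not tested.

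As a description, the tested genes whose levels over the 6 arrays were most like each of the 6 genes detected on all arrays were listed by Pearson r, over 9239 other genes. For Sct these were Repin1 (r = 0.995), Hp1bp3 (r = 0.994) and Gm5796 (r = 0.990), and for Pyy Heatr1 (r = 0.993), Man2c1 (r = 0.992) and Vars (r = 0.989). Chga was followed most closely by Wtip (r = 0.995), Eif5 (r = 0.990) and Nsun5 (r = 0.987), Chgb by A730008H23Rik (r = 0.992), Nle1 (r = 0.991) and Relch (r = 0.989). Gcg was most like Sik1 (r = 0.984), Hgh1 (r = 0.976) and Pim3 (r = 0.975), and Tph1 was most like Cse1l (r = 0.985), Zfp367 (r = 0.984) and Acta1 (r = 0.983). The 6 arrays come from 3 mice, and between 14 and 39 of the 9239 genes had an r over 0.95 with each. The 3 named for each gene were picked as the highest of all those searched, and no r was tested.

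**Figure D5:**
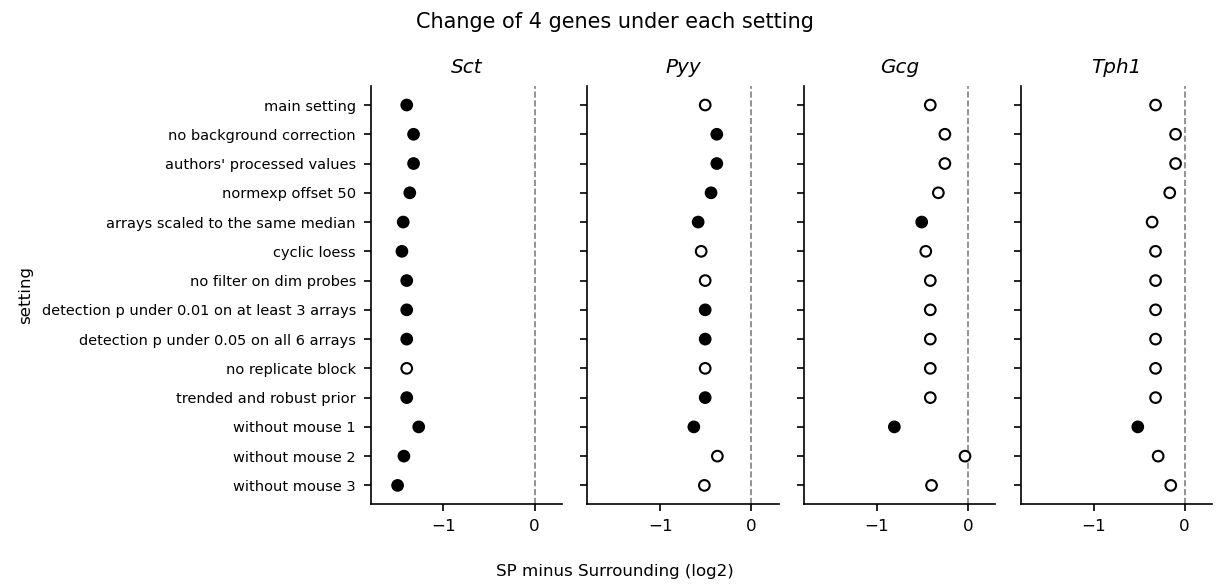
SP minus Surrounding (log2) of Sct, Pyy, Gcg and Tph1 under the setting reported and 13 alternatives; filled points have a limma adjusted p under 0.05. Sct stays between -1.50 and -1.27 and is open only without a mouse term (no replicate block), while Pyy changes between open and filled.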

How the data were processed

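The authors deposited linear scanner intensities of each probe, with a detection p-value beside each per the file headers, and a table of processed intensities of the same 6 arrays. GenomeStudio and limma 3.14.4 are named, without a role, per the submitters' processing notes. Quantile normalization of the scanner values gave the processed ones to within 0.005.

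In R 4.3.3 with limma 3.58.1, scanner intensities were corrected by normexp (background from the detection p-values, offset 16), then quantile normalized, and log2 was taken; the offset shrinks changes of dim probes. Of 25697 probes, 13409 were tested, those detected (p-value under 0.05) on 3 or more arrays. Mouse and SP minus Surrounding were the terms fitted (lmFit, eBayes, two-sided, Benjamini-Hochberg over all tested probes, threshold 0.05), as the design text states that samples are paired by mouse. Deviations from the group means correlated by 0.564 to 0.614 within mice, whose samples by the array names also lie side by side on the chip. Probes were named from the platform annotation (23978 with 1 symbol, 0 with several, 1719 with none), and 23962 matched RefSeq by gene identifier. A gene in a list stands by its brightest tested probe (9246 genes). Promoter sequences are RefSeq's for GRCm38.p6. The code was tested on simulated data.

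The 10 genes and the lists were chosen with earlier results of these data known. Named were all 10 genes, up to 4 passing genes of each list (of lists with none, up to 2), Ptprc, and the 3 genes most like each gene detected on all arrays; further genes were named after their values were seen. Epcam, Muc2, Kit and the other listed genes without a named probe were not analysed here. The 13 alternatives changed the background step, offset, normalization, filter, block, variance prior and mice.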

Additional observations from a re-analysis of the deposited data

Results flagged for a closer look

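Cck, the cholecystokinin gene, was detected on 1 polyp array, that of mouse 1, and on no surrounding array, and so stood outside the test. Its scanner intensity there was 106.5, against 99.3 in the surrounding sample of mouse 1, with lowest detected signals of 101.7 and 104.2 on those arrays. With 3 samples in each group, no check for a sample far from the others was run.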

How the results depend on the processing

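Sct kept its direction under all 13 alternatives and its call under 12, between -1.50 and -1.27 and with limma adjusted p from 8.15e-14 to 0.123, the highest with no replicate block. The lowest came with arrays scaled to the same median, where eBayes gave every probe the same variance. The number of the 10 genes that changed, 1 as reported, was 2 with an offset of 50, with no background correction or in the authors' processed table, with both stricter filters (detection p under 0.01 on at least 3 arrays, or under 0.05 on all 6 arrays) and with a trended and robust prior, the second gene being Pyy each time. It was 3 with arrays scaled to the same median, adding Gcg, and 0 with no replicate block. Leaving out 1 mouse gave 1 to 4. Of all tested genes, 11.5% changed as reported, and 12.4% to 14.8% in the settings that gave 2. The share was 11.6% with arrays scaled to the same median, 1.57% with no replicate block and 3.53% to 15.4% without 1 mouse. Over all lists together, the genes included, 20 changed, 3 with no replicate block and 10 to 25 without 1 mouse. Changed probes numbered 1399, against 183 with no replicate block and 412 to 1927 without 1 mouse. Signs turned for 4 of the 9 tested probes, none of which passed in any setting. The Chga probe reported at -0.0022 was 0.0142 with an offset of 50, 0.0125 with the authors' processed table or no background correction, and -0.15 to 0.0744 without 1 mouse. The brightest Chga probe was -0.0162 with arrays scaled to the same median and -0.0708 to 0.19 without 1 mouse, the remaining one -0.0093 to 0.34 and Insm1 -0.0015 to 0.20. Fits without a mouse have 1 residual degree of freedom. Chga, Insm1 and Tph1 lie near the lowest detected signals, which limits what can be seen of them. The same limit holds for genes of the lists such as Sst, Gip, Nts, Neurog3, Foxa2, Pam, Syp, Slc6a4, Ret and Stmn2. The causes were not tested.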
